A study of Mus musculus with 10 samples.

Results

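The transcripts of 45 genes of DNA replication and S phase were followed in mouse mast cells across 6 culture conditions. The genes are 45 named members of the replication, licensing and deoxynucleotide synthesis machinery. They were listed by symbol, with earlier results of these data known, so shares set beside those of all genes are descriptions. All 45 were found among the 49671 gene rows of the count table. All were also among the 11247 genes with enough counts to be tested. The cells were BMMCs, primary mast cells differentiated from bone marrow by culture in interleukin 3 (IL-3), here from wild-type C57BL/6 mice of 6 to 8 weeks of age. All groups shared IL-3: cultures were kept in it for 6 to 8 weeks, at 5 ng/mL per the growth protocol and at 10 ng/mL per the sample source. They then stayed in IL-3 alone (n = 2), or received for 72 h stem cell factor (SCF, which activates KIT) at a dose of 100 ng/mL (n = 2), or SCF together with transforming growth factor beta (TGF-β) at 1 ng/mL (n = 2) or 10 ng/mL (n = 2). TGF-β was also given without added SCF at 1 or 10 ng/mL (n = 1 each). The SCF dose of the combinations and the time of the IL-3 group are not given in the labels. Separate cultures behind the libraries of a group are not named in the labels, so p-values measure the spread between these samples, which may be technical.

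DNA is copied once per cell cycle. Origins bound by the origin recognition complex are licensed in G1 when CDC6 and CDT1 load the MCM helicase, and are fired in S phase when CDC45 and the GINS complex join it. Primase and the DNA polymerases then copy both strands with the PCNA clamp, and ribonucleotide reductase and thymidylate synthase supply the deoxynucleotides. Many of these genes are known targets of the E2F transcription factors, which the retinoblastoma proteins hold back in resting cells. In mast cells, IL-3 and SCF are known growth and survival factors.

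The 10 full-length SmartSeq2 libraries held 1237382 to 2323916 counts in genes. In CPM, the counts scaled to library size and composition, 3 counts equalled 1.26 to 2.55, depending on the library. Members differed in depth from 69 counts over all libraries for Gins1 and 92 for Orc1 to 17253 for Rfc2, with a count of 0 in some libraries for Gins1 and Orc1. The 8 mast cell markers summed to 53425 to 90369 CPM per library, and none was at 0 throughout. The neutrophil and granulocyte precursor markers summed to 0 to 2.55 CPM, with Mpo, Ltf, S100a8 and S100a9 at 0 in all libraries. Lymphocyte and fibroblast markers reached 1.09 and 3.89 CPM, macrophage markers 11.9 to 20.2 CPM with C1qb at 0, erythroid and megakaryocyte markers 11.3 to 36.5 CPM with Hba-a2 and Pf4 at 0, and eosinophil markers 3.26 to 28.0 CPM with Prg2, Epx, Ear1 and Ear2 at 0. The eosinophil sum moved with the groups, at 20.7 to 21.8 CPM in IL-3, 13.2 to 14.0 CPM with SCF, 3.26 to 6.32 CPM with both factors, and 17.0 and 28.0 CPM with 1 and 10 ng/mL TGF-β alone, and its part in the results was not tested. Dendritic cell markers summed to 9.12 to 48.2 CPM with Xcr1 and Siglech at 0. Their sum too moved, with 14.5 and 9.12 CPM in IL-3 and 13.9 to 28.6 CPM in the libraries with SCF. With 1 and 10 ng/mL TGF-β alone it was 28.0 and 48.2 CPM. Basophil markers summed to 458 to 702 CPM, of which Cd200r3 held 431 to 680 CPM. Mcpt8 was at 0.518 and 1.40 CPM in IL-3, 7.01 and 6.30 CPM with SCF, and 11.2 to 24.98 CPM with both factors. With TGF-β alone Mcpt8 was at 1.70 and 6.99 CPM. Prss34 went the other way, at 14.0 and 15.4 CPM in IL-3, 2.50 and 4.41 CPM with SCF, and 1.09 to 9.50 CPM with both factors. With 1 and 10 ng/mL TGF-β alone Prss34 was at 5.09 and 17.9 CPM. The part of these markers was not tested. A technical measure moved with SCF: genes received 23.2% to 26.6% of counted reads in the 6 libraries with SCF and 16.4% to 23.0% in the 4 without. Reads not uniquely aligned were 37.2% to 43.2% of counted reads with SCF and 42.7% to 55.6% without. Ribosomal RNA loci held 13.9% to 16.4% of gene counts with SCF and 16.2% to 18.4% without. The part of these measures in the results was not tested. The counts of members called were equal when ribosomal RNA loci were left out, which cannot test the share of reads in genes.

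Summed over the 44 members other than Rfc2, which is described apart, the level was lowest without SCF and highest with SCF and TGF-β together. The sums were 1816 and 1248 CPM in IL-3 replicates 1 and 2, 1605 CPM with 1 ng/mL and 2175 CPM with 10 ng/mL TGF-β alone, and 2409 and 2945 CPM with SCF. They were 3653 and 4698 CPM with SCF plus 1 ng/mL TGF-β, and 3857 and 4673 CPM with SCF plus 10 ng/mL. The 6 libraries with SCF therefore all lay above the 4 without, and the 4 with both factors lay above all others. The 1 ng/mL TGF-β alone library lay between those of IL-3, and the 10 ng/mL one lay between those of IL-3 and those of SCF. Gene by gene, 31 of 45 members had all 4 libraries of the combination above the other 6, against 5.56% of all genes tested, and 31 had all 6 libraries with SCF above the 4 without, against 9.31%. Gins2 was the 1 member of 45 with all 6 libraries that had TGF-β above the 4 that had none, against 2.31% of genes, a share near the background. In bulk RNA a higher share of cells in S phase and more of these transcripts per cell cannot be told apart.

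**Figure D1:**
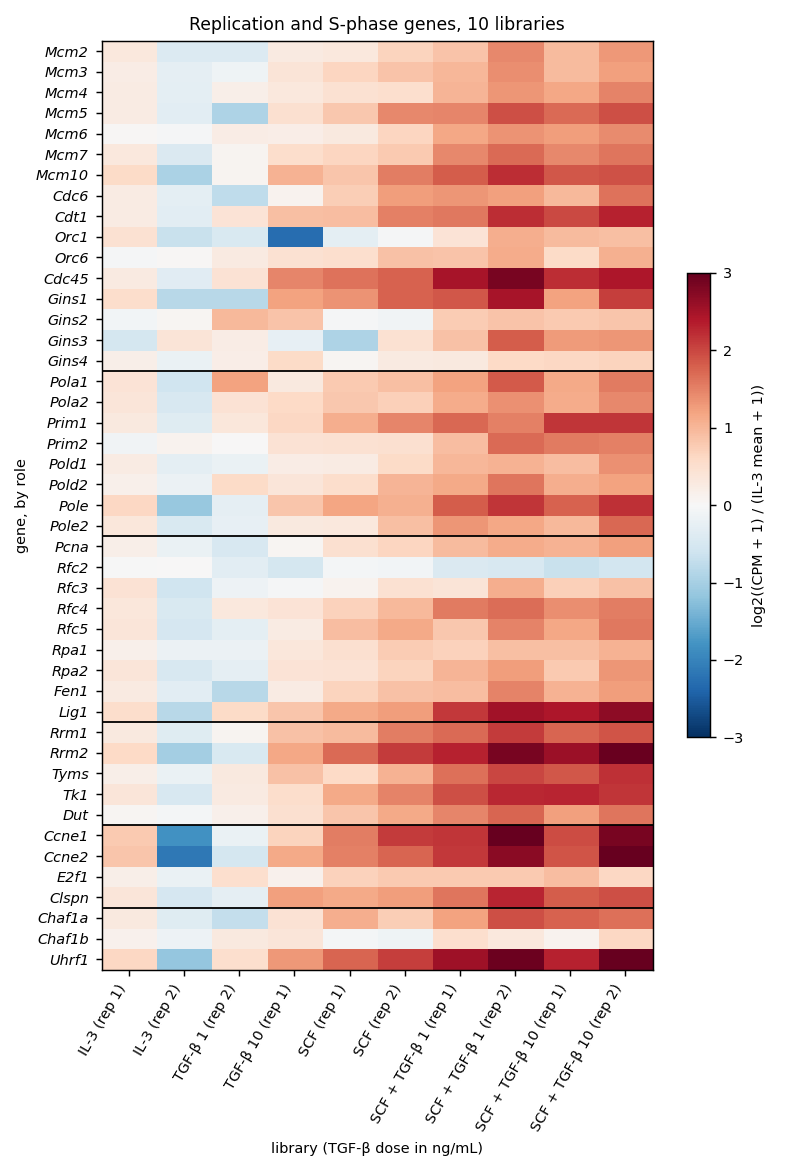
Level of each of the 45 genes (rows, grouped by role) in each of the 10 libraries (columns), as the log2 ratio of CPM + 1 to the IL-3 mean + 1. Colour deepens toward red from the SCF columns to the 4 columns with both factors, while the Rfc2 row turns blue and the E2f1 row is alike in all columns with SCF.

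Libraries of one group also differed in these genes. In IL-3, 40 of 45 members were lower in replicate 2, with a median log2 ratio of -0.65 against 0.00 over all genes. In SCF, SCF with 1 ng/mL and SCF with 10 ng/mL TGF-β, 39, 40 and 39 members were higher in replicate 2, with medians of 0.28, 0.39 and 0.23. The 10 ng/mL TGF-β alone library exceeded the 1 ng/mL one for 37 members, where dose and library cannot be told apart.

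SCF raised 16 of the 45 members over IL-3 (Benjamini-Hochberg adjusted p under 0.05, edgeR quasi-likelihood test over all genes). Of all genes tested, 5.71% were called higher and 3.46% lower. The 16 were the helicase subunits Mcm3, Mcm5 and Mcm7, the licensing factor Cdt1, Cdc45, the primase subunit Prim1, Rfc5, Rpa1, Fen1, Lig1, all 5 deoxynucleotide genes (Rrm1, Rrm2, Tyms, Tk1, Dut) and Uhrf1. The median member log2 fold change was 0.80, against -0.02 over all genes, and both SCF libraries lay above both of IL-3 for 36 members, against 26.2% of genes. The estimate was above 0 for 40 members, and below 0 for Orc1, Gins2, Gins3, Rfc2 and Chaf1b. The count rests on single libraries: it was 2 without IL-3 replicate 2 (Cdc45 and Rrm2), 4 without SCF replicate 2, and 20 at most when another was left out, with medians of 0.58 to 1.15.

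TGF-β added to SCF raised 7 members at 1 ng/mL and 12 at 10 ng/mL. At 1 ng/mL these were Mcm4, Mcm6, Mcm7, Cdc45, Gins2, Lig1 and Tyms, where 1.89% of all genes were called higher and 2.75% lower. At 10 ng/mL they were Mcm4, Mcm6, Mcm7, Cdt1, Gins2, Prim1, Prim2, Pold1, Pcna, Lig1, Tyms and Tk1, with 1 member, Rfc2, called lower; 3.78% of all genes were called higher and 4.59% lower. Both comparisons use the same 2 SCF libraries. With the replicate number as a block 16 members rose and 1 fell at 1 ng/mL, and 19 rose and 1 fell at 10 ng/mL. The block also raised the background: of all genes, 366 rose and 493 fell with the smaller dose, where the main fit had 213 and 309. With the larger dose 627 genes rose and 727 fell, where the main fit had 425 and 516. The median member change was 0.70 and 0.65 on the log2 scale, against 0.01 and -0.00 over all genes, and 39 members at each dose had both libraries above both of SCF, against 22.5% and 24.4% of genes. At 1 ng/mL the count was 1 without SCF replicate 1 and 1 without the second library of the combination, and at most 10. At 10 ng/mL 4 members rose without SCF replicate 1 and 5 without replicate 2 of the combination, and Rfc2 was not called without SCF replicate 1 or replicate 1 of the combination.

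The 2 doses with SCF were not told apart in any member. No member was called by edgeR, DESeq2 or limma-voom, where 0.00889% of all genes were called higher and 0.00889% lower. An unadjusted p under 0.05 was found for 1 member by edgeR, 0 by DESeq2 and 1 by limma-voom, against 313 of 11247 genes by edgeR. By edgeR this member was Prim1 (log2 difference 0.52 ± 0.22 SE, higher at 10 ng/mL). Leaving out the low-count Orc1 and Gins1, estimates ran from -0.35 for Cdc45 to 0.52, with a median of 0.00 and standard errors of 0.12 to 0.42, so that differences of that size were not detectable.

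TGF-β without added SCF raised 1 member over IL-3, Gins2, where 1.36% of all genes were called higher and 2.12% lower. That share, 1 of 45, is near the background. The median member change was 0.25 (0.28 without Orc1 and Gins1) against -0.02 over all genes. By edgeR 6 of 45 members had an unadjusted p under 0.05, as did 1757 of the 11247 genes tested, so that share too is near the background. Both TGF-β alone libraries were above both of IL-3 for 13 members, against 21.9% of genes. Without IL-3 replicate 1 no member was called and the adjusted p of Gins2 was 0.0551.

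With both factors, nearly the whole set differed from IL-3 and from TGF-β alone. Against IL-3, 40 members rose and Rfc2 fell, while 11% of all genes were called higher and 11.2% lower; Orc1, Gins4, Rfc3 and Chaf1b were not called. Against TGF-β alone, 38 members rose, while 13.3% of genes were called higher and 11.4% lower; Orc6, Gins2, Gins4, Pola1, Rfc2, E2f1 and Chaf1b were not called. Median changes were 1.43 and 1.31 on the log2 scale, against -0.02 and -0.01 over all genes. All 4 libraries with both factors were above both of IL-3 for 41 members, against 21.9% of genes, and above both of TGF-β alone for 40, against 23.6%. Leaving out single libraries gave 34 to 40 members higher than IL-3; against TGF-β alone it gave 21 higher without the 1 ng/mL library and up to 38 otherwise. Of 9 tested genes of an RNA quality and stress list, Neat1, Malat1 and mt-Co1 fell and Jun rose over IL-3 (median log2 change -0.42; Jun not without IL-3 replicate 2), and the same 3 fell over TGF-β alone (median -0.36). Their part in the member changes was not tested.

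Whether SCF changed the effect of TGF-β was tested as an interaction on the log2 scale. No member was called by edgeR, DESeq2 or limma-voom, and by edgeR 0.116% of all genes were called higher and 0.178% lower. An unadjusted p under 0.05 was found for 7, 4 and 5 members with these tools, against 1029 of 11247 genes by edgeR. The median member estimate was 0.51 (higher with SCF) against 0.01 over all genes, and ran from -0.05 (without IL-3 replicate 1) to 0.73 when single libraries were left out. The member effects of TGF-β with and without SCF are therefore not shown to differ.

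**Figure D2:**
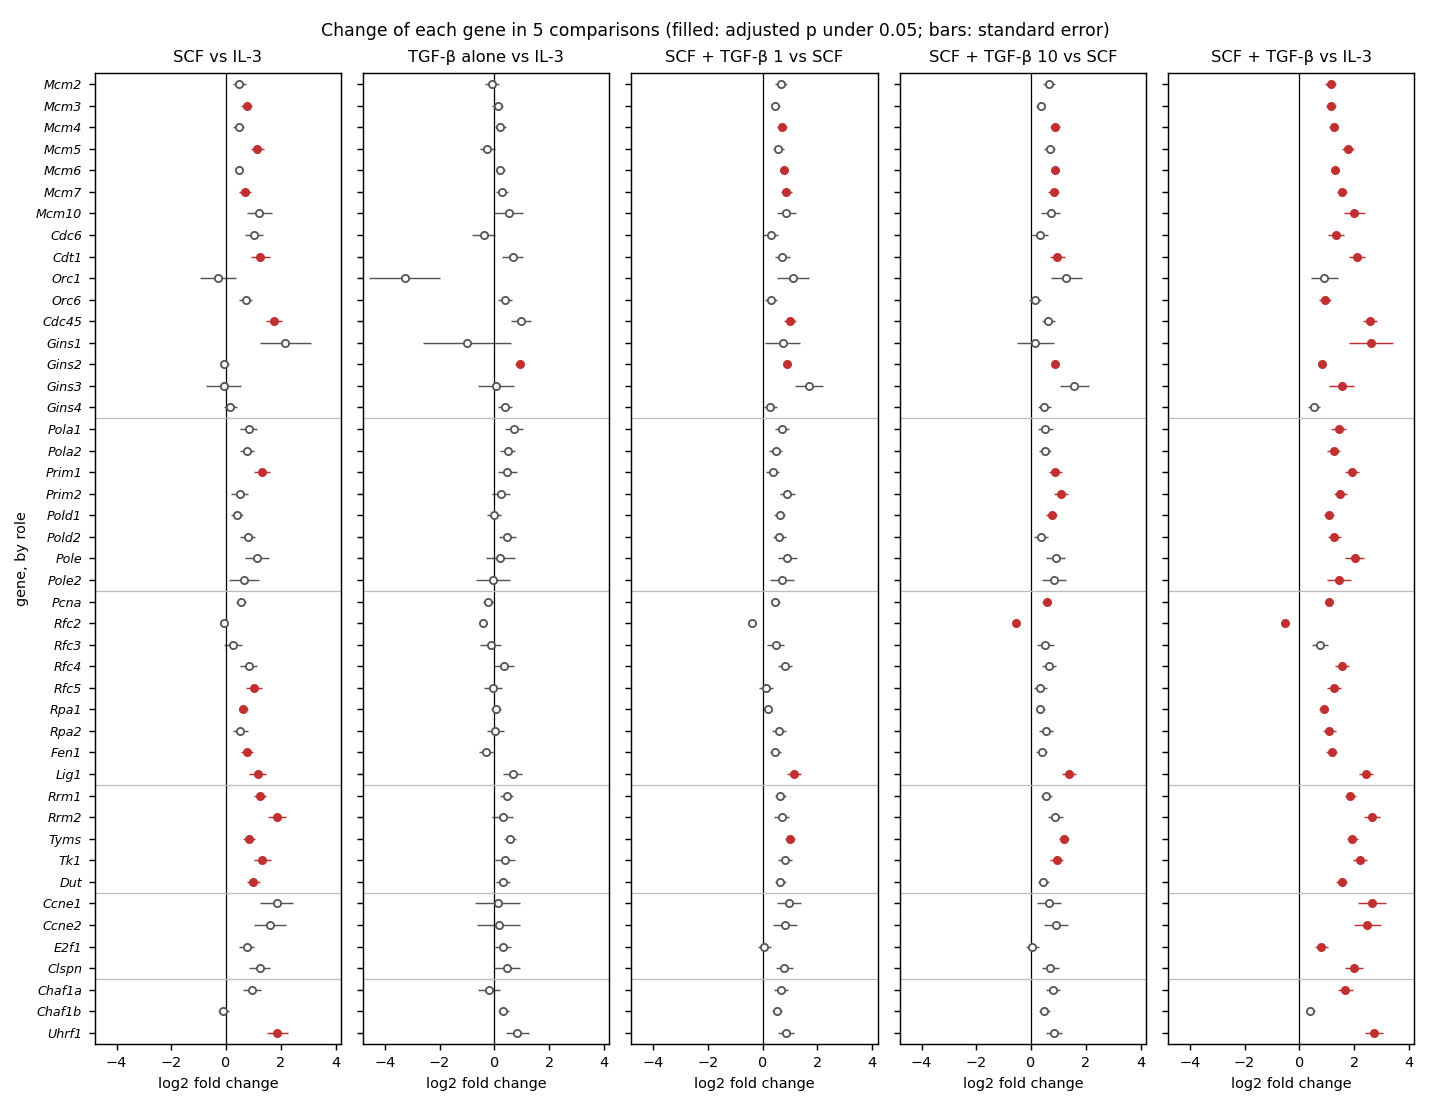
Log2 fold change (points) with its standard error (bars) of each gene in 5 comparisons, with filled red points for adjusted p under 0.05. In the comparison of both factors with IL-3, 40 points are filled to the right of 0 and 1, Rfc2, to the left, whereas TGF-β alone has a single filled point, Gins2.

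The promoters of these genes were searched for 4 words of the classical E2F site, TTTCCCGC, TTTCGCGC, TTTGCCGC and TTTGGCGC, on both strands. RefSeq promoter windows (GRCm38.p6, 250 bases before to 50 after the start) were matched for 37 members, with 43 windows in all. Of these, 15 windows (34.9%) held a word, against 744 of 32851 windows of the same length over all genes (2.26%). The share was 18.6% against 0.323% for TTTCGCGC, 14.0% against 1.07% for TTTCCCGC, 14.0% against 0.514% for TTTGGCGC, and 0 of 43 against 0.441% for TTTGCCGC. A match is a description of the letters and not of a bound site. Mcm4, Gins1, Gins2, Gins4, Prim2, Pole, Rfc2 and Ccne2 were not matched. Shown are the windows of the 3 members with a word and the lowest p in SCF against IL-3, and of Cdc45, which had the lowest p of the called members without a word. Each is written 5′ to 3′ on the gene's strand with the words in capitals. The Uhrf1 window, 1 of 2 for this gene, is chr17:56304063-56304362 (plus strand), that of Mcm5 chr8:75109259-75109558 (plus), that of Mcm3 chr1:20820263-20820562 (minus) and that of Cdc45 chr16:18811923-18812222 (minus).
Uhrf1: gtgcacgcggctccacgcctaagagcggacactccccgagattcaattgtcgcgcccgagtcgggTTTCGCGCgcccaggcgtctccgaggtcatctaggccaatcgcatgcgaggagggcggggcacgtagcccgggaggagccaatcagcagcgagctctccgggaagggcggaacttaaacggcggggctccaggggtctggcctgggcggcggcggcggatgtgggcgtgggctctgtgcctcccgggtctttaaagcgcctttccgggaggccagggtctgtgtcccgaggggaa
Mcm5: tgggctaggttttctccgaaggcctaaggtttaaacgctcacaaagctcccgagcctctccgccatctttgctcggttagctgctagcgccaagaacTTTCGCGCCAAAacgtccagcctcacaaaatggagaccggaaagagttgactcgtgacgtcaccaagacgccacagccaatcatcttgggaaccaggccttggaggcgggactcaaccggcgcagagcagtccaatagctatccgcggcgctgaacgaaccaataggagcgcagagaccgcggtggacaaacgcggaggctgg
Mcm3: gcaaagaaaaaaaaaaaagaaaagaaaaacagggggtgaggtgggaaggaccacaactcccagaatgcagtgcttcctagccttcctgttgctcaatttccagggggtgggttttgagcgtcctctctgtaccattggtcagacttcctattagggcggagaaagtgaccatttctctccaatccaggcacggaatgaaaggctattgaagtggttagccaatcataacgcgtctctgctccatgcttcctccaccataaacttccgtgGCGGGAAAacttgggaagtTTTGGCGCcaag
Cdc45: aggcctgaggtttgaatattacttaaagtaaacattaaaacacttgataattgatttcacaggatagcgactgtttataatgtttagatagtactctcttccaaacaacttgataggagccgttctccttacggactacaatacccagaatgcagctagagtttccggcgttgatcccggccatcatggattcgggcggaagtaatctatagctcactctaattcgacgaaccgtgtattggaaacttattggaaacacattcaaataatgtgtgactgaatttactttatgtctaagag
In the Mcm5 window TTTCGCGC and a TTTGGCGC on the opposite strand share bases, which makes the single capital run of that line. Mcm3 holds a TTTCCCGC on the opposite strand and a TTTGGCGC on its own, both after the start. In all, 5 members had 2 or more words in a window.

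**Figure D3:**
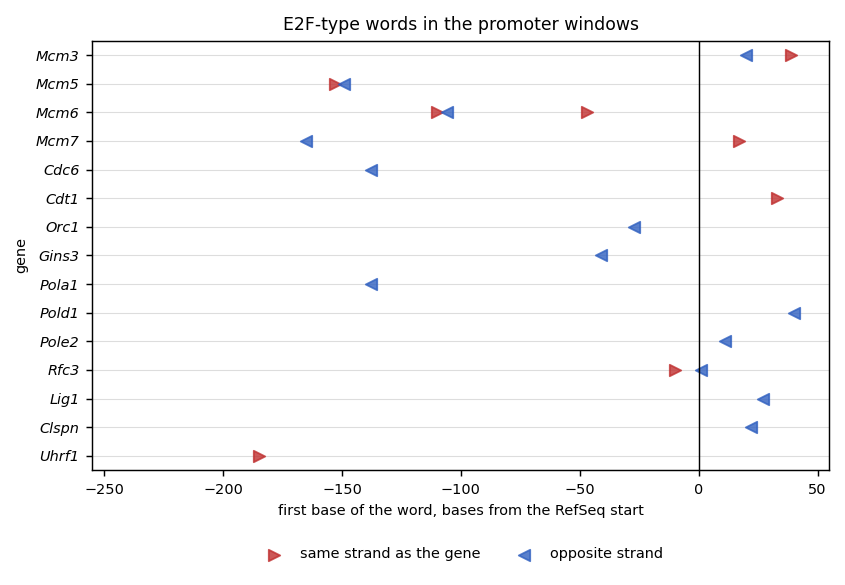
Position of each E2F-type word relative to the RefSeq start (x axis, in bases) in the 15 members that had one (y axis), with triangles pointing right for the gene's strand and left for the opposite one. Words lie between 185 bases before the start (Uhrf1) and 40 bases after it (Pold1), and Mcm6 has 3.

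Among the 16 licensing and helicase genes, Cdc45 had the largest change of those called with SCF. Cdc45, whose product joins the MCM ring to make the active helicase, lies at chr16:18780447-18811987. It stood at 11.4 and 7.02 CPM in IL-3, 12.7 and 27.2 CPM with 1 and 10 ng/mL TGF-β alone, 30.5 and 34.0 CPM with SCF, 55.6 and 73.0 CPM with SCF plus 1 ng/mL TGF-β, and 46.0 and 54.3 CPM with SCF plus 10 ng/mL. All libraries with SCF were above all without, and those with both factors above those with SCF alone. The log2 change with SCF was 1.76 ± 0.30 (SE; adjusted p = 0.00161), and the call held in all 4 fits that left out a library. Adding 1 ng/mL TGF-β gave 0.99 ± 0.23 (adjusted p = 0.0155), a call lost without SCF replicate 1, SCF replicate 2 or the second library of the combination, and 10 ng/mL gave 0.63 ± 0.23 (adjusted p = 0.109).

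The group means of the ring subunits Mcm2 to Mcm7 were each lower in IL-3 than in SCF, and lower in SCF than with both factors. Mcm6 (chr1:128331590-128359664) was at 135 and 129 CPM in IL-3, 155 and 152 CPM with 1 and 10 ng/mL TGF-β alone, and 162 and 207 CPM with SCF. It reached 297 and 337 CPM with SCF plus 1 ng/mL TGF-β, and 315 and 356 CPM with SCF plus 10 ng/mL. The 4 libraries with both factors stood clear of all others. Its change was 0.48 ± 0.16 with SCF (adjusted p = 0.072), and it rose by 0.79 ± 0.15 and 0.87 ± 0.15 when 1 and 10 ng/mL TGF-β were added (adjusted p = 0.00463 and 0.00122). The Mcm6 call at 1 ng/mL was lost without SCF replicate 1 or the second library of the combination. That at 10 ng/mL held in all 4 fits without a library. Mcm5 was at 68.9 and 46.3 CPM in IL-3, 29.7 and 80.8 CPM with TGF-β alone at 1 and 10 ng/mL, 102 and 158 CPM with SCF, and 162 to 224 CPM in the 4 libraries of the combination. It rose by 1.14 ± 0.24 with SCF (adjusted p = 0.00628; 0.12 without IL-3 replicate 2, 0.106 without SCF replicate 2), and its changes with 1 and 10 ng/mL TGF-β were 0.57 ± 0.21 and 0.68 ± 0.21 (adjusted p = 0.165 and 0.0606). Mcm4 rose with both doses of TGF-β, by 0.70 ± 0.19 and 0.86 ± 0.18, and so did Mcm7, by 0.86 ± 0.19 and 0.82 ± 0.19. The Mcm7 call at 1 ng/mL held in 1 of 4 fits without a library. The Mcm4 call at 1 ng/mL was lost without SCF replicate 1 or the second library of the combination. At 10 ng/mL the Mcm4 and Mcm7 calls were lost without SCF replicate 1 or the second library of that combination. Per kilobase of exon, group means of the 6 subunits ran from 7.44 CPM for Mcm5 in 1 ng/mL TGF-β alone to 94.4 CPM for Mcm3 in SCF with 1 ng/mL, and Mcm3 had the highest mean of the 6 in every group.

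Cdt1, which loads the ring at origins and must be shut off once S phase begins, was at 13.0 and 8.42 CPM in IL-3, 14.4 and 21.0 CPM with 1 and 10 ng/mL TGF-β alone, and 21.0 and 32.1 CPM with SCF. With SCF and TGF-β it was at 34.1 and 53.4 CPM for 1 ng/mL and 45.1 and 57.0 CPM for 10 ng/mL. It rose by 1.26 ± 0.35 with SCF (adjusted p = 0.0333) and by 0.95 ± 0.28 when 10 ng/mL TGF-β was added (adjusted p = 0.0409), and each of these calls held in 1 of 4 fits without a library. Cdc6, its loading partner, ranged from 6.79 to 14.5 CPM without SCF and from 21.0 to 39.6 CPM with it, with no overlap. Mcm10 ranged from 2.81 to 14.0 CPM without SCF and from 12.01 to 33.2 CPM with it, and these ranges overlapped. Neither was called in SCF against IL-3 (adjusted p = 0.0642 and 0.101), and both rose with both factors over IL-3, by 1.34 ± 0.29 and 2.01 ± 0.37. Of the origin recognition subunits, Orc6 rose by 0.93 ± 0.21 with both factors over IL-3. Orc1 was below 10 CPM everywhere, with 5.70 and 2.11 CPM in IL-3, 0 in the 10 ng/mL TGF-β alone library and 5.47 to 9.50 CPM with both factors. Orc1 and Gins1 had libraries without a count, so only their levels are given. Gins1 was at 0 in IL-3 replicate 2 and the 1 ng/mL TGF-β alone library and at 3.13 to 8.90 CPM with both factors, and calls of both were lost in some fits without 1 library.

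In this role 5 genes of 16 rose with SCF, 5 with each dose of TGF-β added to SCF, 14 with both factors over IL-3 and 13 with both over TGF-β alone. Across fits without 1 library those counts were 1 to 5, 1 to 7 at 1 ng/mL, 2 to 7 at 10 ng/mL, 12 to 14 and 7 to 13. The lowest came without IL-3 replicate 2 or SCF replicate 2, without SCF replicate 1 or the second library of SCF with 1 ng/mL, without SCF replicate 1 or the second library of SCF with 10 ng/mL, and, for the last, without the 1 ng/mL TGF-β alone library.

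**Figure D4:**
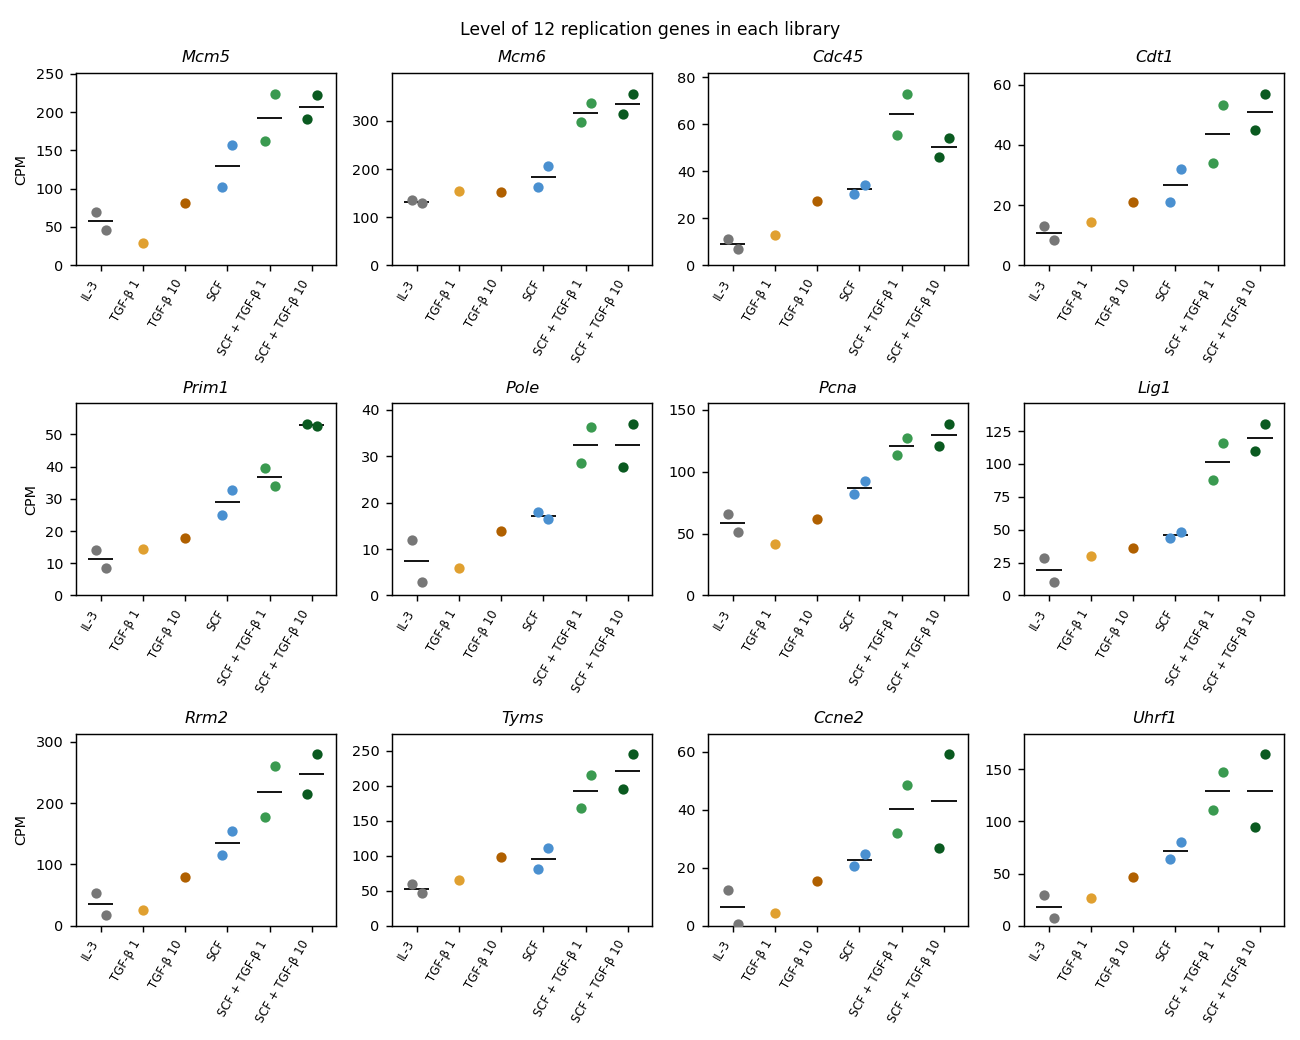
CPM (y axis, from 0) of 12 members in every library, by group (x axis; TGF-β dose in ng/mL), with 1 point per library and a bar at the mean of groups of 2. In most panels the points climb from IL-3 through SCF to both factors, as for Lig1 from 28.5 and 10.5 to 109 and 130 CPM at 10 ng/mL.

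Gins2, a subunit of the GINS complex, did not follow the other members. It was at 61.1 and 67.4 CPM in IL-3, 63.1 and 59.9 CPM with SCF, 126.4 and 117 CPM with 1 and 10 ng/mL TGF-β alone, 110 and 118 CPM with SCF plus 1 ng/mL TGF-β, and 112 and 115 CPM with SCF plus 10 ng/mL. Every library with TGF-β was above every library without it, with or without SCF. The log2 change was 0.92 ± 0.16 for TGF-β alone over IL-3 (adjusted p = 0.0031), 0.89 ± 0.16 and 0.88 ± 0.16 for 1 and 10 ng/mL added to SCF (adjusted p = 0.0025 and 0.00153), and -0.06 ± 0.17 for SCF over IL-3 (adjusted p = 0.879). Gins2 (chr8:120578633-120589304, minus strand) shares 2758 exon bases, 67.3% of its exon length, with Gse1 on the other strand (chr8:120228456-120581390). Gse1 stood at 95.3 and 119 CPM in IL-3, 75.1 and 73.1 CPM with SCF, 168 and 172 CPM with 1 and 10 ng/mL TGF-β alone, and 116 to 143 CPM with both factors. It too rose with TGF-β alone (0.67 ± 0.16, adjusted p = 0.0278) and with each dose added to SCF (0.76 ± 0.17 and 0.93 ± 0.16). The library kit marks no strand and the strand setting of the counting is not given in the sources used here, so reads of Gins2 and Gse1 cannot be told apart in the shared bases. The other GINS genes moved otherwise: Gins3 was at 2.50 to 8.19 CPM in the 6 libraries without the combination and 11.4 to 22.6 CPM with it, and Gins4 was called in no comparison.

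The 8 polymerase and primase genes all rose with both factors over IL-3, and 7 to 8 did in fits without 1 library. Prim1, the catalytic subunit of primase, was at 14.0 and 8.42 CPM in IL-3, 14.4 and 17.9 CPM with 1 and 10 ng/mL TGF-β alone, 25.03 and 32.8 CPM with SCF, 39.6 and 33.8 CPM with SCF plus 1 ng/mL TGF-β, and 53.2 and 52.7 CPM with SCF plus 10 ng/mL. The order of groups had no overlap between IL-3, SCF and the combination. Prim1 rose by 1.31 ± 0.30 with SCF (adjusted p = 0.0104; 0.126 without IL-3 replicate 2 and 0.102 without SCF replicate 2), and was the 1 gene of this role called there, where fits without 1 library gave 0 to 4. It rose by a further 0.88 ± 0.23 with 10 ng/mL TGF-β (adjusted p = 0.0262), and its partner Prim2 by 1.10 ± 0.26 (adjusted p = 0.0118), calls that each held in 1 of 4 fits without a library. Pold1, the catalytic subunit of the lagging-strand polymerase delta, rose by 0.75 ± 0.21 at 10 ng/mL (adjusted p = 0.0303; 0.244 without SCF replicate 1 and 0.285 without the second library of the combination). Pole, the catalytic subunit of the leading-strand polymerase epsilon, was at 11.9 and 2.81 CPM in IL-3, 5.94 and 14.0 CPM with TGF-β alone, 18.0 and 16.4 CPM with SCF, and 27.7 to 36.9 CPM with both factors. It rose by 2.02 ± 0.36 with both factors over IL-3 (adjusted p = 0.000517), the largest estimate of the 8. Pola1 was the 1 gene of the 8 not called for both factors over TGF-β alone, with 53.5 CPM in the 1 ng/mL TGF-β alone library and 50.9 to 83.1 CPM with both factors. In that comparison many fewer of the 8 were called without either TGF-β alone library. Medians of the 8 were 1.08 to 1.40 on the log2 scale over fits without 1 library.

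Of the clamp, loader, single-strand binding and lagging-strand genes, Lig1, the ligase that seals Okazaki fragments, had the largest changes over IL-3 with SCF and with both factors. Lig1 (chr7:13277283-13311433) was at 28.5 and 10.5 CPM in IL-3, 29.7 and 35.8 CPM with 1 and 10 ng/mL TGF-β alone, 44.1 and 47.9 CPM with SCF, 87.6 and 116 CPM with SCF plus 1 ng/mL TGF-β, and 109 and 130 CPM with SCF plus 10 ng/mL. The groups with SCF did not overlap with those without, nor SCF alone with the combination. Lig1 rose by 1.16 ± 0.31 with SCF (adjusted p = 0.0247), a call that held in 1 of 4 fits without a library. It rose by 1.14 ± 0.25 and 1.38 ± 0.25 when 1 and 10 ng/mL TGF-β were added (adjusted p = 0.0117 and 0.00145), and these calls held in 1 and in all 4 of 4 such fits. Pcna, the sliding clamp, was at 65.8 and 51.2 CPM in IL-3, 81.6 and 92.7 CPM with SCF, 114 and 127 CPM with SCF plus 1 ng/mL TGF-β, and 121 and 138 CPM with SCF plus 10 ng/mL. With 1 and 10 ng/mL TGF-β alone it was at 41.6 and 61.4 CPM, the first below both IL-3 values and the second between them. Its rise of 0.57 ± 0.17 at 10 ng/mL (adjusted p = 0.0431) was lost without any 1 of the 4 libraries, and its change with SCF was 0.56 ± 0.18 (adjusted p = 0.0654). Rfc5, a loader subunit, Rpa1, the large subunit of the single-strand binding protein, and Fen1, the flap nuclease, rose with SCF by 1.02 ± 0.28, 0.63 ± 0.17 and 0.76 ± 0.22. With Lig1 this made 4 of 9 called with SCF (0 without IL-3 replicate 2 or SCF replicate 2, 1 without SCF replicate 1), while 7 rose and 1 fell with both factors over IL-3.

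Rfc2, a small subunit of the clamp loader, stood apart in level and direction. It was at 1206 and 1213 CPM in IL-3 and 1169 and 1146 CPM with SCF, and at 972 and 838 CPM with 1 and 10 ng/mL TGF-β alone. It was at 896 and 862 CPM with SCF plus 1 ng/mL TGF-β, and at 765 and 831 CPM with SCF plus 10 ng/mL. Every library with TGF-β was below every library without it. Per kilobase of exon the group means of Rfc2 were 127 to 192 CPM, against 4.93 to 25.4 CPM over Rfc3, Rfc4 and Rfc5. Its log2 change was -0.54 ± 0.12 for 10 ng/mL added to SCF (adjusted p = 0.00818; 0.0525 without SCF replicate 1 and 0.119 without replicate 1 of the combination) and -0.53 ± 0.10 for both factors over IL-3 (adjusted p = 0.000954). It was -0.40 ± 0.12 for 1 ng/mL added to SCF and -0.42 ± 0.12 for TGF-β alone over IL-3, which were not called (adjusted p = 0.0725 and 0.0637). The 3′ end of Rfc2 (chr5:134581366-134601805, plus strand) shares 952 exon bases, 15.1% of its exon length, with Lat2 on the other strand (chr5:134600022-134615025), an adaptor of immune receptor signalling in mast cells. Lat2 was at 1195 and 1298 CPM in IL-3, 1374 and 1407 CPM with SCF, 925 and 814 CPM with TGF-β alone and 845 to 991 CPM with both factors. It fell by 0.51 and 0.66 on the log2 scale when 1 and 10 ng/mL TGF-β were added to SCF (adjusted p = 0.0174 and 0.0016) and by 0.52 with TGF-β alone (adjusted p = 0.0225). Reads of the 2 genes cannot be told apart in the shared bases.

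Exon bases shared with a gene on the other strand were found for 14 of the 45 members, under 20% of the exon length in 11 of them and over 50% in Gins2, Fen1 and Chaf1a. Fen1 shares 1909 bases (78.8%) with Gm10143. Fen1 was at 64.3 and 42.8 CPM in IL-3, 29.7 and 63.7 CPM with 1 and 10 ng/mL TGF-β alone, 85.6 and 99.0 CPM with SCF and 102 to 153 CPM with both factors. Gm10143 was at 53.4 and 42.1, 43.3 and 58.3, 66.1 and 104, and 105 to 139 CPM in the same order. It rose with SCF by 0.81 ± 0.23 (adjusted p = 0.0354), where Fen1 rose by 0.76. Chaf1a shares 4648 bases (52.5%) with Ubxn6, whose change with SCF was -0.54 ± 0.19 (adjusted p = 0.0838) where that of Chaf1a was 0.95 ± 0.32 (adjusted p = 0.0743).

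**Figure D5:**
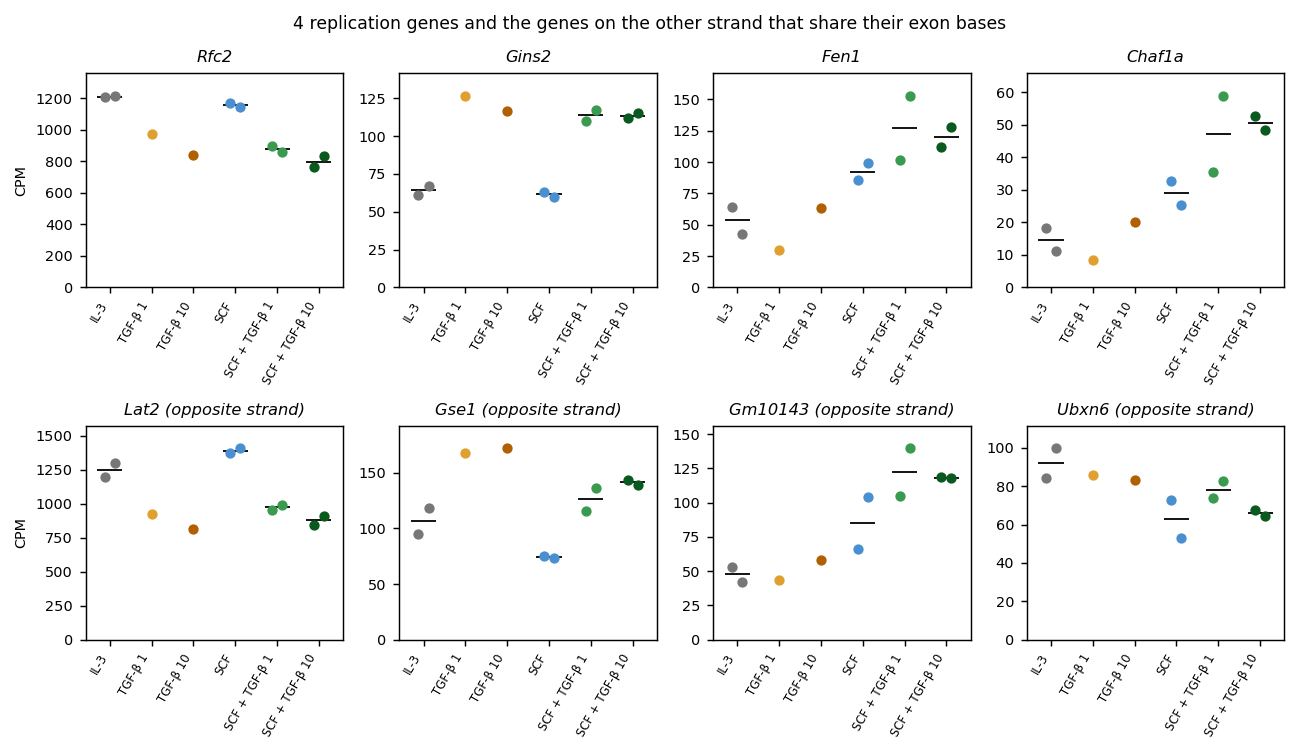
CPM (y axis, from 0) by group (x axis; TGF-β dose in ng/mL) of 4 members (top) and of the gene on the other strand that shares their exon bases (bottom), with 1 point per library and a bar at the mean of groups of 2. Rfc2 and Lat2 are both lowest with TGF-β, Gins2 and Gse1 have their highest group means with TGF-β alone, and Fen1 and Gm10143 both climb with SCF, whereas Chaf1a and Ubxn6 differ in order.

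The 5 deoxynucleotide genes all rose with SCF, and all 5 rose with both factors over IL-3 and over TGF-β alone. Rrm2, the regulated subunit of ribonucleotide reductase, lies at chr12:24708241-24714146. It was at 53.4 and 16.8 CPM in IL-3, 25.5 and 80.0 CPM with 1 and 10 ng/mL TGF-β alone, 116 and 154 CPM with SCF, 177 and 260 CPM with SCF plus 1 ng/mL TGF-β, and 214 and 280 CPM with SCF plus 10 ng/mL. Both SCF libraries were above all 4 without SCF and below all 4 with both factors. Rrm2 rose 3.65-fold with SCF (log2 1.87 ± 0.32, adjusted p = 0.00167), in all 4 fits without a library, and 6.30-fold with both factors over IL-3 (2.66 ± 0.29, adjusted p = 4.85e-06). Its catalytic partner Rrm1 was at 99.0 and 61.8 CPM in IL-3, 84.9 and 148 CPM with TGF-β alone, 156 and 233 CPM with SCF, and 262 to 345 CPM with both factors, and rose with SCF by 1.25 ± 0.22 (adjusted p = 0.00232, and 0.0664 without IL-3 replicate 2). Without IL-3 replicate 2, 1 gene of the 5 was called with SCF, and 2 without SCF replicate 2.

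Tyms, thymidylate synthase, had the largest estimates of these 5 genes for added TGF-β. It was at 59.6 and 46.3 CPM in IL-3, 65.3 and 97.9 CPM with 1 and 10 ng/mL TGF-β alone, 81.1 and 110 CPM with SCF, 168 and 215 CPM with SCF plus 1 ng/mL TGF-β, and 196 and 245 CPM with SCF plus 10 ng/mL. The SCF values straddled that of 10 ng/mL TGF-β alone, and the 4 libraries with both factors were above all others. It rose by 0.83 ± 0.21 with SCF (adjusted p = 0.0213) and by 1.00 ± 0.19 and 1.21 ± 0.19 when 1 and 10 ng/mL TGF-β were added (adjusted p = 0.00399 and 0.000462). The call at 10 ng/mL held in all 4 fits without a library and that at 1 ng/mL in 2 of 4. Tk1, the thymidine salvage kinase of S phase, rose by 1.33 ± 0.31 with SCF and by 0.94 ± 0.24 with 10 ng/mL TGF-β added (adjusted p = 0.0124 and 0.0224), and held in 2 and 1 of 4 such fits. Dut, which removes dUTP, rose by 1.00 ± 0.23 with SCF (adjusted p = 0.0129) and was not called when TGF-β was added at 1 or 10 ng/mL (adjusted p = 0.0942 and 0.22).

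The 4 S-phase regulators had large and variable estimates. Ccne2, an E-type cyclin that activates CDK2 at the start of S phase, was at 12.4 and 0.70 CPM in IL-3, 4.24 and 15.5 CPM with 1 and 10 ng/mL TGF-β alone, 20.5 and 24.6 CPM with SCF, 32.0 and 48.7 CPM with SCF plus 1 ng/mL TGF-β, and 26.8 and 59.2 CPM with SCF plus 10 ng/mL. Ccne1, the other E-type cyclin, was at 9.33 and 0.70 CPM in IL-3, 4.24 and 8.55 CPM with TGF-β alone, 16.5 and 24.6 CPM with SCF and 22.3 to 55.2 CPM with both factors. For both cyclins all libraries with SCF lay above all without, and IL-3 replicate 2 was the lowest of the 10, with 1 count. The size of their changes over IL-3 is therefore loose. With both factors it ran from 1.92 to 5.53 for Ccne1 and from 1.72 to 5.74 for Ccne2, on the log2 scale over the alternative fits. Changes with SCF were 1.86 ± 0.61 for Ccne1, 1.61 ± 0.57 for Ccne2, 1.24 ± 0.38 for the checkpoint mediator Clspn and 0.75 ± 0.27 for E2f1 (adjusted p = 0.066, 0.0921, 0.0528 and 0.093), so none of the 4 was called by edgeR, nor by DESeq2 or limma-voom, with an unadjusted p under 0.05 for 4, 2 and 4 of them. Without IL-3 replicate 1, 2 of them were. With both factors over IL-3 all 4 rose, by 2.66 ± 0.52, 2.48 ± 0.49, 1.99 ± 0.32 and 0.80 ± 0.24, and 3 to 4 did without 1 library. Over TGF-β alone 3 of the 4 rose, and 0 did without the 1 ng/mL TGF-β alone library. E2f1, the transcription factor, was at 18.7 and 14.0 CPM in IL-3, 27.0 and 29.0 CPM with SCF, and 25.5 to 31.7 CPM with both factors. Its estimates for 1 and 10 ng/mL TGF-β added to SCF were 0.06 ± 0.24 and 0.04 ± 0.24, with the SCF libraries inside the range of the combination.

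Of the 3 genes that act on chromatin behind the fork, Uhrf1 had the largest changes over IL-3 with SCF and with both factors. UHRF1 brings the maintenance DNA methyltransferase to newly copied DNA, and its gene lies at chr17:56303321-56323486. It was at 29.0 and 7.72 CPM in IL-3, 26.3 and 46.6 CPM with 1 and 10 ng/mL TGF-β alone, 63.6 and 80.7 CPM with SCF, 111 and 147 CPM with SCF plus 1 ng/mL TGF-β, and 94.3 and 165 CPM with SCF plus 10 ng/mL. SCF libraries were above all without SCF and below all with both factors. Uhrf1 rose by 1.88 ± 0.37 with SCF (adjusted p = 0.00497, and 0.0784 without IL-3 replicate 2) and by 2.72 ± 0.33 with both factors over IL-3 (adjusted p = 1.26e-05), and its change for each dose of TGF-β added to SCF was 0.84 ± 0.30, not called. Chaf1a and Chaf1b, subunits of the histone chaperone CAF-1, parted. Chaf1a rose by 1.68 ± 0.27 with both factors over IL-3, while Chaf1b was at 74.1 and 60.4 CPM in IL-3, 64.1 and 61.8 CPM with SCF and 72.4 to 104 CPM with both factors (overlapping IL-3), and was called in no comparison.

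A further 74 genes of the pathway, all tested, were read as 4 lists. With SCF 8 of 74 rose and 3 of 74 fell, against 5.71% and 3.46% of all genes, so that the share that fell is near the background. Among the 30 initiation and fork factors Wdhd1, Gmnn and Chtf18 rose, and among the 18 E2F, RB and checkpoint genes E2f3, Ccna2 and Fbxo5 rose, by 1.89, 1.72 and 1.32 on the log2 scale. Rb1 and Rbl2, pocket proteins that restrain E2F, fell by 0.89 and 0.86 (adjusted p = 0.0117 and 0.00855), but neither was called without IL-3 replicate 2 or without SCF replicate 2. Among the 17 nucleotide supply genes Dck, deoxycytidine kinase, rose by 2.20 ± 0.28 (adjusted p = 0.000118) and Tk2, the mitochondrial thymidine kinase, fell by 1.13 ± 0.20 (adjusted p = 0.00232). Asf1b, a histone chaperone, was the 1 of 9 chromatin genes that rose. Without IL-3 replicate 2 the counts were 2 higher and 1 lower, without SCF replicate 2 they were 3 and 1, and without SCF replicate 1, 5 rose.

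When TGF-β was added to SCF, 6 of these 74 genes rose at 1 ng/mL, and 11 rose and 1 fell at 10 ng/mL, where 1.89% of all genes rose at 1 ng/mL, and 3.78% rose and 4.59% fell at 10 ng/mL. Donson, a fork factor, was at 3.004 and 3.78 CPM with SCF, 15.2 and 14.2 CPM with 1 ng/mL TGF-β and 15.6 and 11.4 CPM with 10 ng/mL. It rose by 2.11 and 2.00 on the log2 scale (adjusted p = 0.0101 and 0.01). Fbxo5, Cad, Dck and Slbp were also called higher at both doses, Cdk2 at 1 ng/mL, and Rbl1, Ccna2, Gmnn, Asf1b, Cdca7 and Dnmt1 at 10 ng/mL. Samhd1, which breaks down deoxynucleotides, was at 74.6 and 41.0 CPM with SCF and 30.4 and 22.3 CPM with SCF plus 10 ng/mL TGF-β, and fell by 1.14 (adjusted p = 0.0132), a call lost without SCF replicate 1 or the second library of the combination. The counts of risen genes were 0 and 2 without SCF replicate 1, and 1 and 2 without the second library of the combination at 1 and 10 ng/mL. They were also 3 at 1 ng/mL without SCF replicate 2 and 3 at 10 ng/mL without the first library of the combination. With TGF-β alone Dck was the 1 of 74 called, a share near the 1.36% of all genes called higher. It stood at 9.33 and 7.72 CPM in IL-3 and 24.6 and 26.4 CPM with 1 and 10 ng/mL, and the count was 0 without either IL-3 library or the 10 ng/mL library. With both factors, 39 rose and 4 fell (Rb1, Rbl2, Tk2 and Samhd1) relative to IL-3, where 11% of all genes rose and 11.2% fell. Many fewer of the 74 rose without IL-3 replicate 2, with medians of 0.76 to 0.95 on the log2 scale over fits without 1 library. Relative to TGF-β alone 38 rose and 5 fell, where 13.3% of all genes rose and 11.4% fell. Many fewer of the 74 rose without the 1 ng/mL TGF-β alone library, and fewer without the 10 ng/mL one. That count thus rests on single libraries, while medians were 0.67 to 0.92 on the log2 scale over fits without 1 library. In both comparisons the share of the 74 that fell was below that of all genes.

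The genes outside the set whose group means were most like the mean of the members, by Pearson correlation of log2 CPM over the 6 group means, were Tcf19 (r = 0.9999), Fbxo5 (0.999), Pbk (0.998), Melk (0.998) and Cenpw (0.998). The points share libraries and depth, so these are descriptions. Among the members themselves this correlation had a median of 0.97 and was lowest for Rfc2 (-0.58), Gins2 (0.25), Chaf1b (0.40) and Orc1 (0.55).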

How the data were processed

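Cells were lysed and full-length cDNA was made by template switching (SmartSeq2), per the labels' protocols. Nextera XT libraries were read as paired ends of 38 bases, with no molecular identifiers named. Per the submitters' processing notes the authors used STAR, HTSeq and DESeq2 with GRCm38 (mm10); the sources used here do not give versions, annotation or strand setting. Raw counts of reads per gene were deposited by the authors, and 5 rows that name no gene were left out: these held reads not uniquely aligned (37.2% to 55.6% of counted reads), without a feature (26.0% to 33.6%), or ambiguous (2.04% to 2.85%).

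Counts were fitted by the quasi-likelihood F test of edgeR 4.0.16 (R 4.3.3), after filterByExpr and TMM scaling, with 1 mean per group over 10 libraries, which left 4 residual degrees of freedom. The 2 groups with 1 library take their spread from the others. The common biological coefficient of variation was 0.126. Genes were called at an adjusted p under 0.05, by Benjamini-Hochberg over 11247 genes in each of 8 contrasts. Standard errors are approximate, computed by dividing each log2 fold change by the root of its F statistic. CPM use the TMM-scaled library sizes, and fold changes in the text come from the fit. Replicates differed beyond counting error, with a chi-square per gene of 3.30 to 4.24. Loci and exon lengths are from GENCODE vM21, with the union of all annotated exons as length. The pipeline was tested on simulated data.

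The members and the other gene lists were chosen with earlier results of these data known, so lists are described by counts and medians and get no test. Per contrast and role, up to 3 called members with the largest change were named by rule, with any member that went against the rest and up to 4 called genes per direction of each other list. Further members are given to account for the set. Alternatives were DESeq2 size factors, DESeq2 1.42.0, limma-voom (limma 3.58.1), no filter, a filter of 10 CPM in 2 libraries, a replicate block, only the groups compared, no ribosomal RNA loci, no second libraries of the SCF groups, and each library left out.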

Additional observations from a re-analysis of the deposited data

How the results depend on the processing

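The median member change moved by less than the spread between replicates, 0.296 on the log2 scale, in each comparison under the alternatives that did not leave out a single library. That spread is wide beside some medians: the interaction median was 0.51 in the main fit and 0.26 with limma-voom. Counts of called members moved by more than 1.5 times as follows. Without the second libraries of the SCF groups, 10 members were called for SCF against IL-3 and 2 for 1 ng/mL TGF-β added to SCF. For 1 ng/mL added to SCF the count was 18 with no filter. For 10 ng/mL it was 7 with DESeq2, and 21 both with no filter and with only the groups compared. For TGF-β alone it was 2 with limma-voom, with no filter and without the second SCF libraries, with 1 higher and 1 lower in each. With the replicate block the counts were 17 and 20 for 1 and 10 ng/mL added to SCF and 2 for TGF-β alone. The block also called more of all genes than the main fit in each of these comparisons. Replicate differences of same-numbered libraries correlated at 0.197 to 0.231 among the 3 SCF groups, but at -0.0033 to 0.022 between these and IL-3, so the numbers go together among the SCF groups and not with IL-3; the labels name no shared source.

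Leaving out single libraries gave 2 to 20 called members for SCF against IL-3 (median change 0.58 to 1.15), 1 to 10 for 1 ng/mL added to SCF (0.44 to 0.88), 4 to 14 for 10 ng/mL (0.47 to 0.82), 0 to 0 for the doses against each other (-0.18 to 0.19), and 0 to 1 for TGF-β alone (-0.025 to 0.59). It gave 21 to 38 for both factors against TGF-β alone (1.03 to 1.58), 35 to 41 against IL-3 (1.23 to 1.82), and 0 to 0 for the interaction (-0.046 to 0.73). Of 885 values for 63 named changes, 781 stayed past the threshold and 0 reversed. Loci of satellite repeats were not left out, as no repeat annotation was used here. With 4 residual degrees of freedom and 1 or 2 libraries a group, depth and replicate number limit these results most for Gins1 and Orc1. They also limit those of Ccne1 and Ccne2, which had 1 count in IL-3 replicate 2.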

Other observations

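A list of 25 mitosis genes was read in the same fit. With SCF over IL-3, 22 of the 25 rose, against 5.71% of all genes. Their median log2 change was 1.58, against -0.02 over all genes. Many fewer rose without IL-3 replicate 2 or without SCF replicate 2, with medians of 1.04 to 2.64 over fits without 1 library. With 1 and 10 ng/mL TGF-β added to SCF, the medians of the 25 were 0.81 and 0.88, against 0.01 and -0.00 over all genes. Of the 25, 9 and 17 rose, against 1.89% and 3.78% of all genes. Those counts were 0 and 3 without SCF replicate 1, 4 and 10 without SCF replicate 2, 1 and 6 without the second library of the combination, and 10 at 10 ng/mL without its first library. With TGF-β alone 1.36% of all genes were called higher and 2.12% lower by edgeR. Of the mitosis genes 0 of 25 were called there by edgeR, DESeq2 or limma-voom. An unadjusted p under 0.05 was found for 3, 2 and 2 of the 25 with these tools, against 1757 of 11247 genes by edgeR. The median by edgeR was 0.31, and 4 were called without IL-3 replicate 1 and 1 without the 1 ng/mL library. All 25 rose with both factors over IL-3 and over TGF-β alone, where 11% and 13.3% of all genes rose. Mki67, a marker of cycling cells, was at 23.3 and 10.5 CPM in IL-3, 17.0 and 41.96 CPM with 1 and 10 ng/mL TGF-β alone, 51.6 and 63.7 CPM with SCF, and 118 to 137 CPM with both factors. Libraries with SCF were all above those without, and those with both factors above SCF alone.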
